A study of Danio rerio with 13 samples.

Results

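Opsins are the light-sensing proteins of the photoreceptors, and 10 opsin genes of the retina and the pineal organ were followed here in zebrafish larvae: the red cone opsin genes opn1lw1 and opn1lw2, the green cone opsin genes opn1mw1, opn1mw2, opn1mw3 and opn1mw4, the ultraviolet cone opsin gene opn1sw1, the blue cone opsin gene opn1sw2, the rod opsin gene rho and the pineal opsin gene exorh. They were taken by symbol, and each had 1 row among the 32417 rows of the count table. RNA sequencing counts were available for 13 libraries in 3 groups: 3 libraries of untreated larvae carrying a homozygous CRISPR knockout of aldh3b1 (ALDH3B1 -/-), 5 libraries of wild-type larvae (ALDH3B1 +/+) given 2-HD, and 5 libraries of untreated wild-type larvae. Every larva was of the Tg(fli1:EGFP) line, where endothelial cells express EGFP from the fli1 promoter. The study asks about aldh3b1, which encodes an aldehyde dehydrogenase, and the diabetic retina, and both the knockout and the treated larvae had the same untreated wild types as their controls. What 2-HD stands for is not given in the labels, nor are a dose, a duration, the age of the larvae or the number pooled in a library. No vehicle group is named, so an effect of 2-HD and one of its vehicle cannot be told apart. Nor is it given whether the libraries within a group stem from different pools, so all p-values refer to the scatter among these 13 libraries, part of which may be technical.

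An opsin is a membrane receptor that carries a vitamin A aldehyde as its light absorber, and light turns it into the activator of transducin, the G protein that starts phototransduction. Each photoreceptor type of the zebrafish retina uses its own opsin class, and the red and the green class each consist of tandem gene copies that arose by duplication. In larval fish opn1lw2 and opn1mw1 are known as the copies that come on first and predominate, and the other red and green copies are known to follow later and in other parts of the retina. Rods use rho, whereas its relative exorh belongs to the photoreceptors of the pineal organ, which lies in the brain roof outside the eye. In the gene order of RefSeq assembly GRCz12tu, which is not the GRCz11 build named for these counts, opn1sw2, opn1lw1 and opn1lw2 follow each other directly, as do the 4 green genes, and 2 protein-coding genes lie between exorh and rho.

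Libraries held 19066393 to 19332225 counts in the knockout, 19339056 to 19482661 with 2-HD and 17975289 to 19009200 in wild type. Levels are given in CPM, counts brought to a common library total with TMM factors, and they were not divided by gene length, so a level can be compared between groups but not between genes. At this depth the 3 counts that a count of 0 allows amounted to 0.148 to 0.173 CPM in a library, which covers counting error only. On principal components of all genes, 2-HD library 1 and wild-type library 14 stood apart on the second component. They lay at 53.8 and 41.6, against -24.3 to 4.36 in the other 11, so some results on the opsins are also given without both. On the first component wild-type libraries 3 and 5 lay at -16.2 and -28.8, and wild-type libraries 10, 13 and 14 at -49.5, -43.4 and -52.0. There 2-HD library 1 lay at 8.03, within the knockout range of -9.31 to 9.86. The mRNA of aldh3b1 did not separate the knockout from untreated wild type, with 4.49 to 5.59 CPM in knockout and 4.62 to 7.45 CPM in wild-type libraries. It cannot therefore serve as a check of the knockout label. In 2-HD libraries it was higher, at 8.13 to 13.2 CPM (log2 fold change against wild type 0.73, edgeR adjusted p = 0.00179). edgeR's quasi-likelihood test was run on 22158 genes, and those with a Benjamini-Hochberg adjusted p under 0.05 are called.

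Summed opsin mRNA was lower in knockout and in 2-HD larvae than in wild-type larvae, but few single opsins were called in the knockout. Together the 10 genes took 0.766 ± 0.0997% of all counts in the knockout (SD, n = 3), 0.725 ± 0.0796% with 2-HD (SD, n = 5) and 0.991 ± 0.120% in wild type (SD, n = 5). Wild type was not uniform, with 0.870% and 0.872% in libraries 3 and 5 and 1.11%, 1.11% and 0.991% in libraries 10, 13 and 14. The highest knockout library (0.829%) and the highest 2-HD library (0.810%) lay below the lowest wild-type library (0.870%). Among single genes, 8.01% of all tested showed a separation downward in CPM in the knockout and 12.2% with 2-HD. The summed opsin level itself was not tested. In the knockout 2 of the 8 opsins that passed the filter on low counts were called lower and 0 higher, against 1.86% of all genes tested called lower, 4.1% higher and 5.97% in either direction. These 2 knockout calls depended on single libraries, and 0 remained with only knockout and wild type in the fit. With 2-HD 7 of the 8 were called lower and 1, opn1mw2, higher, against 19.7% of all genes tested called lower, 22.7% higher and 42.4% in either direction. The median log2 fold change of the 8 opsins was -0.44 in the knockout, where that of all genes tested was 0.0014. With 2-HD the opsin median was -0.55 and that of all genes 0.023. Both comparisons used the same 5 wild-type libraries and are not independent of each other. The opsins and the gene lists below were chosen with earlier results of these data known. An excess over the shares of all genes is thus no independent test of them. In bulk RNA from larvae, fewer photoreceptors and less opsin RNA in each photoreceptor cannot be told apart.

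**Figure D1:**
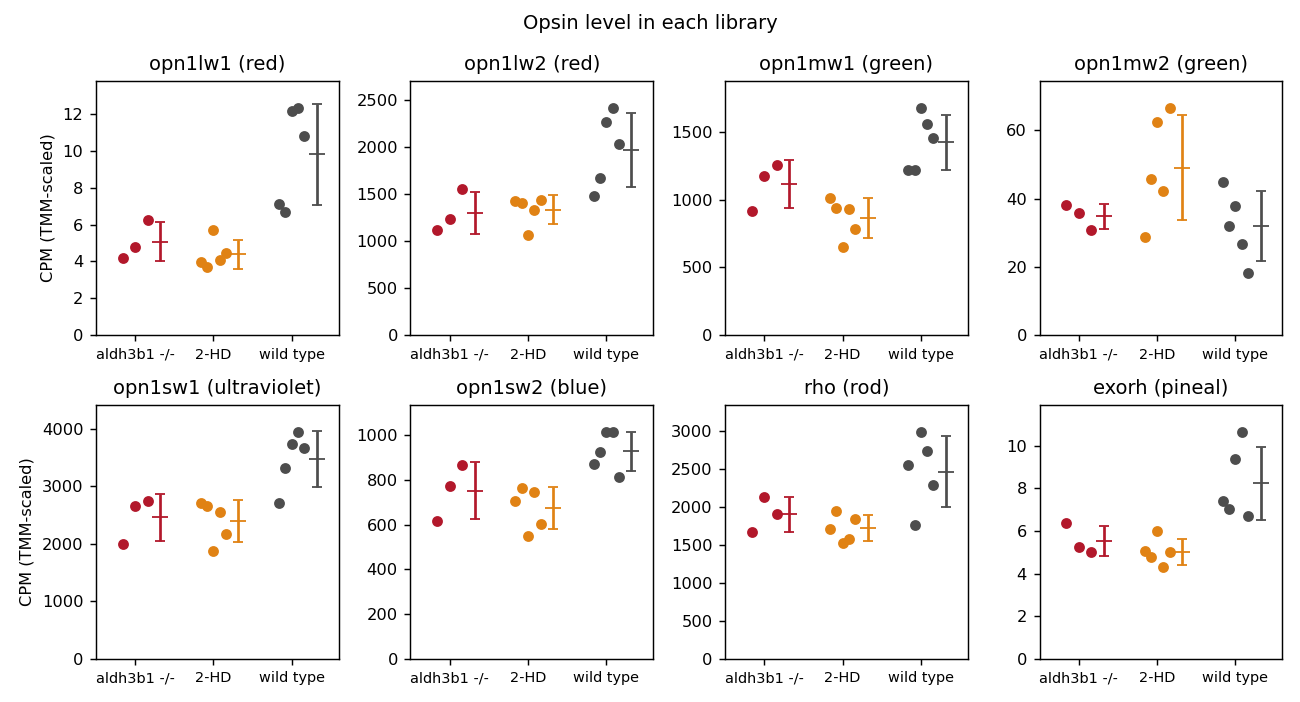
Level of the 8 opsins that passed the filter, in CPM on linear axes that start at 0. Each point is a library of the aldh3b1 -/-, 2-HD or wild-type group, and the bar beside it gives the group mean with its SD (n = 3, 5 and 5). All knockout and all 2-HD points lie below all wild-type points for opn1lw1 and exorh, and 3 of 5 2-HD points lie above all wild-type points for opn1mw2. A separation downward was shown by 8.01% of all genes tested in the knockout and 12.2% with 2-HD.

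Over all genes the knockout against wild type had 1322 calls, 909 higher and 413 lower, and 2-HD against wild type had 9398 calls, 5030 higher and 4368 lower. Scaling by total counts alone shifted these splits to 1543 higher and 202 lower in the knockout and to 6569 higher and 3228 lower with 2-HD. The opsin calls were the same in number and direction under that scaling, with 2 lower in the knockout and 7 lower and 1 higher with 2-HD.

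The red opsins were the members called in both comparisons with wild type. The opn1lw1 row held few reads, with 82, 93 and 120 counts in the knockout libraries, 77, 75, 115, 81 and 90 with 2-HD and 132, 123, 218, 221 and 187 in wild type. In CPM this gave 4.20, 4.77 and 6.26 in the knockout, 3.97, 3.70, 5.73, 4.07 and 4.46 with 2-HD and 7.09, 6.69, 12.2, 12.3 and 10.8 in wild type. Every knockout and every 2-HD library lay below every wild-type library, a separation downward that 8.01% of all genes showed in the knockout and 12.2% with 2-HD. Within wild type the values fell into a lower set (libraries 3 and 5) and a higher set (libraries 10, 13 and 14), sets that were also split on the first component of all genes. The same sets were apart for opn1lw2, opn1mw1 and opn1sw1, but not for opn1mw2, opn1sw2, rho or exorh. Levels averaged 5.08 ± 1.06 CPM in the knockout, 4.39 ± 0.801 CPM with 2-HD and 9.82 ± 2.74 CPM in wild type (SD, n = 3, 5 and 5). The gene fell in the knockout by 0.95 on the log2 scale (SE 0.23, edgeR adjusted p = 0.0307). It fell with 2-HD by 1.16 on the log2 scale (SE 0.19, edgeR adjusted p = 3.49e-04), the largest change among the 8 opsins in both comparisons.

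Its neighbour opn1lw2 carried nearly all red opsin reads. It stood at 1118, 1238 and 1550.3 CPM in the knockout, 1421, 1406, 1068, 1327 and 1440.4 CPM with 2-HD and 1478, 1668, 2262, 2411 and 2028 CPM in wild type. All 5 of the 2-HD libraries were below the lowest wild-type library, as for 12.2% of all genes tested. So were 2 of 3 knockout libraries, and knockout library 7 was within the wild-type range. Levels averaged 1302 ± 223 CPM in the knockout, 1333 ± 154 CPM with 2-HD and 1969 ± 392 CPM in wild type (SD, n = 3, 5 and 5). The log2 fold change was -0.60 in the knockout (SE 0.16, edgeR adjusted p = 0.0415) and -0.56 with 2-HD (SE 0.13, edgeR adjusted p = 0.00385). When the reads of both red genes were summed, the log2 fold change was -0.60 in the knockout and -0.57 with 2-HD.

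The knockout calls of the red opsins depended on single libraries. For opn1lw1 the call was lost without knockout library 2, 3 or 7 and without wild-type library 10 or 13, with edgeR adjusted p of 0.0663 to 0.116 and log2 fold changes of -1.13 to -0.83. For opn1lw2 it was lost without any of those 5 libraries, without wild-type library 14 and without 2-HD library 2, 4 or 5, with edgeR adjusted p of 0.05003 to 0.147 and log2 fold changes of -0.74 to -0.50. With only knockout and wild type in the fit neither was called (edgeR adjusted p = 0.0637 and 0.0759), and without the libraries that stood apart opn1lw1 was called and opn1lw2 was not (edgeR adjusted p = 0.0432 and 0.0554). The calls of both genes with 2-HD stood in each of these alternatives.

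Among the green opsins, opn1mw1 and opn1mw2 changed in opposite directions with 2-HD. The level of opn1mw1 was 919, 1176 and 1256 CPM in the knockout, 1015, 939.6, 652, 931 and 781 CPM with 2-HD and 1219, 1215, 1673, 1554 and 1452 CPM in wild type. Every 2-HD library was below every wild-type library, as for 12.2% of all genes tested, whereas knockout library 7 lay within the wild-type range. It averaged 1117 ± 176 CPM in the knockout, 864 ± 146 CPM with 2-HD and 1423 ± 203 CPM in wild type (SD, n = 3, 5 and 5). With 2-HD opn1mw1 fell by 0.72 on the log2 scale (SE 0.13, edgeR adjusted p = 5.76e-04). Its knockout log2 fold change of -0.35 (SE 0.15, 95% interval -0.67 to -0.028) did not pass the test (edgeR adjusted p = 0.166).

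The second green gene had fewer reads and varied more between libraries. In CPM opn1mw2 stood at 38.02, 35.6 and 30.9 in the knockout, 28.8, 45.7, 62.3, 42.1 and 66.4 with 2-HD and 44.7, 32.05, 37.9, 26.7 and 18.3 in wild type. Of the 5 libraries with 2-HD, 3 were above the highest wild-type library, and 2-HD libraries 3 and 5 were the highest of all 13. The lowest library of the 2-HD group was library 1 and the lowest of the wild-type group library 14, the same libraries that stood apart on the second component. It averaged 34.8 ± 3.64 CPM in the knockout, 49.1 ± 15.4 CPM with 2-HD and 31.9 ± 10.2 CPM in wild type (SD, n = 3, 5 and 5). The rise with 2-HD was 0.62 on the log2 scale (SE 0.23, edgeR adjusted p = 0.0420), or 53.6%, and without both libraries that stood apart it was 0.59 (edgeR adjusted p = 0.0105). In the knockout the log2 fold change was 0.12 (95% interval -0.44 to 0.69, edgeR adjusted p = 0.814). The 2-HD call was lost without knockout library 3 or 7, 2-HD library 2, 3 or 5, or wild-type library 5, 13 or 14, with edgeR adjusted p of 0.0501 to 0.117 and log2 fold changes of 0.47 to 0.64, and with only 2-HD and wild type in the fit (edgeR adjusted p = 0.0581).

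The remaining green genes were close to undetected. The opn1mw3 row held 3, 1 and 1 counts in the knockout libraries, 1, 1, 0, 3 and 3 with 2-HD and 0, 0, 3, 2 and 0 in wild type, at or under the 3 counts that a count of 0 allows. The opn1mw4 row held 1 count in 2-HD library 4 and 0 in the other 12 libraries. Both were set aside by the filter and not tested, and no difference in them was detectable at this depth. With the reads of all 4 green genes summed, the log2 fold change was -0.34 in the knockout and -0.67 with 2-HD, so the sum followed opn1mw1. Copies in each of these tandem groups are close in sequence, the handling of reads that match several copies is not given in the sources used here, and how far reads of 1 copy were counted on another was not tested.

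The short-wavelength cone opsins were lower with 2-HD. For opn1sw1, the ultraviolet opsin, levels were 1991, 2652 and 2738 CPM in the knockout, 2716, 2667, 1883, 2563 and 2167 CPM with 2-HD and 2711, 3324, 3742, 3948 and 3661 CPM in wild type. Of the 2-HD libraries 4 of 5 and of the knockout libraries 2 of 3 were below the lowest wild-type library, which was library 3. It averaged 2460.3 ± 409 CPM in the knockout, 2399 ± 360.1 CPM with 2-HD and 3477 ± 484 CPM in wild type (SD, n = 3, 5 and 5). With 2-HD it fell by 0.54 on the log2 scale (SE 0.13, edgeR adjusted p = 0.00339). The knockout value was -0.50 (SE 0.15, 95% interval -0.81 to -0.19), just outside the threshold in edgeR (adjusted p = 0.0564) and inside it in DESeq2 (adjusted p = 0.0148). In edgeR it passed without 2-HD library 1 or 3 and without wild-type library 3, the lowest of its group (adjusted p of 0.0233 to 0.0499). Of 20 alternative fits, listed with the processing below, 4 called it and the others did not.

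For opn1sw2, the blue opsin, levels were 614, 772 and 867 CPM in the knockout, 707, 762, 547, 746 and 601 CPM with 2-HD and 872, 926, 1012, 1014 and 814 CPM in wild type. All libraries given 2-HD were below the lowest wild-type library, here library 14, as for 12.2% of all genes tested. So were 2 of 3 knockout libraries. The gene averaged 751 ± 128 CPM in the knockout, 672 ± 94.3 CPM with 2-HD and 928 ± 87.4 CPM in wild type (SD, n = 3, 5 and 5). With 2-HD it fell by 0.46 on the log2 scale (SE 0.11, edgeR adjusted p = 0.00378), the smallest change among the 8 opsins in that comparison. In the knockout the log2 fold change of -0.31 (95% interval -0.58 to -0.031) did not pass the test (edgeR adjusted p = 0.158).

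Rod opsin mRNA was lower with 2-HD, with an overlap of libraries. The level of rho was 1673, 2125 and 1907 CPM in the knockout, 1706, 1944, 1524, 1582 and 1841 CPM with 2-HD and 2548, 1764, 2986, 2730.3 and 2292 CPM in wild type. Wild-type library 5 was the lowest of its group, and with it 2 of the 2-HD libraries and 2 of the knockout libraries overlapped the wild-type range. It averaged 1902 ± 226 CPM in the knockout, 1719 ± 175 CPM with 2-HD and 2464 ± 466.3 CPM in wild type (SD, n = 3, 5 and 5). With 2-HD rho fell by 0.52 on the log2 scale (SE 0.12, edgeR adjusted p = 0.00352). In the knockout the log2 fold change was -0.37 (SE 0.14, 95% interval -0.68 to -0.070, edgeR adjusted p = 0.121). Without wild-type library 5 that value was -0.47 and was called (edgeR adjusted p = 0.0335). This was the only call in 20 alternative fits. It was not called in DESeq2 (adjusted p = 0.0680) or with only knockout and wild type in the fit (edgeR adjusted p = 0.171).

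The pineal opsin was low in all libraries and separated both groups from wild type. Counts of exorh were 124, 102 and 96 in the knockout, 98, 97, 120, 86 and 101 with 2-HD and 138, 129, 168, 191 and 116 in wild type. In CPM these were 6.35, 5.23 and 5.01 in the knockout, 5.06, 4.78, 5.98, 4.32 and 5.004 with 2-HD and 7.42, 7.02, 9.38, 10.6 and 6.70 in wild type. No knockout or 2-HD library reached the lowest wild-type library, and knockout library 2 came closest to it. Such a separation downward was shown by 8.01% of all genes in the knockout and 12.2% with 2-HD. The gene averaged 5.53 ± 0.722 CPM in the knockout, 5.03 ± 0.607 CPM with 2-HD and 8.23 ± 1.71 CPM in wild type (SD, n = 3, 5 and 5). With 2-HD exorh fell by 0.71 on the log2 scale (SE 0.14, edgeR adjusted p = 0.00125). The knockout value of -0.57 (SE 0.17, 95% interval -0.93 to -0.22) missed the threshold (edgeR adjusted p = 0.0548). It passed without knockout library 2, without wild-type library 3, 5 or 14, and without both libraries that stood apart (edgeR adjusted p of 0.0426 to 0.0476). It also passed in DESeq2 (adjusted p = 0.0224). These were 6 of 20 alternative fits, and it was not called in the others.

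**Figure D2:**
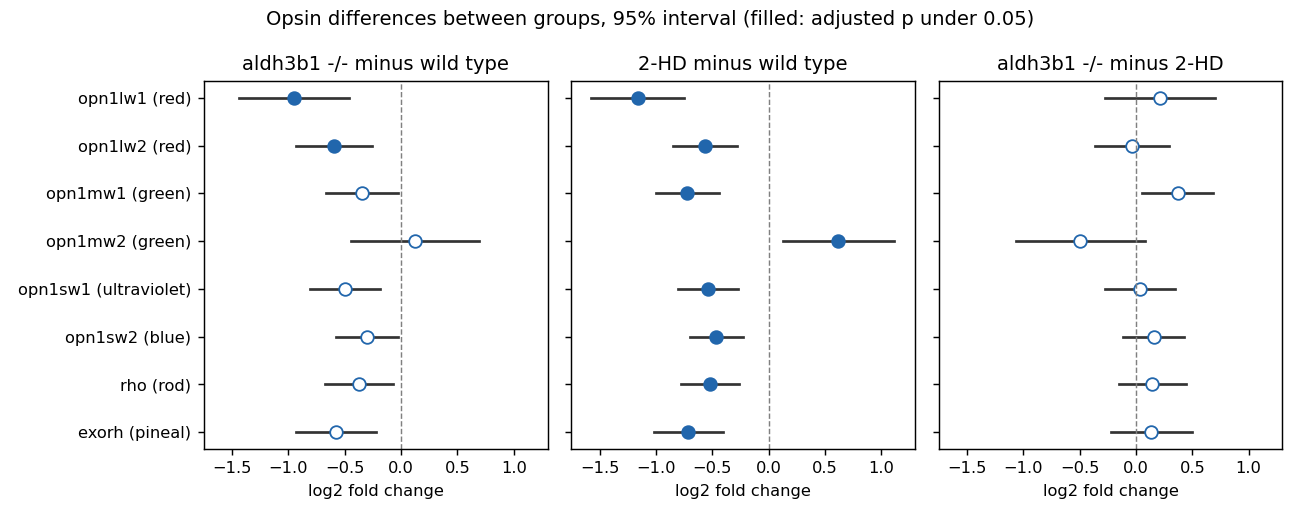
Log2 fold change of each opsin in the 3 comparisons, with its 95% interval. Filled points were called at an adjusted p under 0.05 over all genes tested. They were 2 of 8 in the knockout against wild type, where 5.97% of all genes were called in either direction. With 2-HD against wild type they were 8 of 8, against 42.4% of all genes. In the knockout against 2-HD they were 0 of 8, against 6.98% of all genes.

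Set directly against each other, the knockout and the 2-HD larvae had no opsin that passed the test, against 6.98% of all genes tested called in either direction, 3.06% lower and 3.93% higher in the knockout. No opsin lay lower in all knockout than in all 2-HD libraries, which 8.82% of all genes did. For 8 opsins a count of 0 is near these shares. At an unadjusted p under 0.05 there was 1, opn1mw1, and DESeq2 called 0. The intervals of the log2 difference, knockout minus 2-HD, still allowed sizeable differences. They were -0.28 to 0.70 for opn1lw1, -0.36 to 0.30 for opn1lw2, -0.27 to 0.34 for opn1sw1 and -0.11 to 0.43 for opn1sw2. The intervals were -0.15 to 0.44 for rho and -0.22 to 0.49 for exorh. The green genes lay farthest from 0, with opn1mw1 at 0.37 (95% interval 0.056 to 0.69, edgeR adjusted p = 0.131) and opn1mw2 at -0.49 (95% interval -1.07 to 0.079, edgeR adjusted p = 0.263). Without both libraries that stood apart, opn1mw2 was called lower in the knockout than with 2-HD (log2 difference -0.62, edgeR adjusted p = 0.0333). In mean level 6 opsins had the order 2-HD, knockout, wild type from low to high, and for opn1lw2 the knockout was lowest. For opn1mw2 the order from low to high was wild type, knockout, 2-HD.

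Ratios of opsins within a library do not depend on how libraries were scaled, and they were used to ask whether members differed in their change. The green pair showed the widest spread. Per count of opn1mw2 there were 24.2, 33.00 and 40.7 counts of opn1mw1 in the knockout libraries, 35.2, 20.5, 10.5, 22.1 and 11.8 with 2-HD and 27.3, 37.9, 44.1, 58.2 and 79.3 in wild type. Libraries 2, 3, 4 and 5 with 2-HD were below all wild-type libraries, and 2-HD library 1 was within their range. The mean log2 ratio was 4.18 ± 0.72 with 2-HD and 5.53 ± 0.59 in wild type (SD, n = 5 each), a difference of -1.35 (2-sided exact permutation p = 0.0159, adjusted p = 0.198 over 15 tests). The smallest exact p that 5 against 5 libraries can give is 0.00794, and a ratio alone at that p would have an adjusted p of 0.119, so the adjusted values could not pass for a single ratio and the ratios are given as values.

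The red pair ran the other way, toward its more abundant member. Per count of opn1lw1 there were 266, 259.7 and 248 counts of opn1lw2 in the knockout libraries, 358, 380.5, 186, 326 and 323 with 2-HD and 208, 249, 186, 196 and 188 in wild type. All 2-HD libraries but library 3, and knockout libraries 2 and 3, lay above the wild-type range. The log2 ratio of opn1lw1 to opn1lw2 differed by -0.58 between 2-HD and wild type (2-sided exact permutation p = 0.0397, adjusted p = 0.198) and by -0.34 between knockout and wild type (exact permutation p = 0.0714, adjusted p = 0.214).

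Of the other ratios, that of opn1sw1 to opn1sw2 separated knockout from 2-HD libraries. There were 3.24, 3.43 and 3.16 counts of opn1sw1 per count of opn1sw2 in the knockout and 3.84, 3.50, 3.44, 3.44 and 3.61 with 2-HD, every knockout library below every 2-HD library, but also 3.11, 3.59, 3.70, 3.89 and 4.50 in wild type, which spanned both. Its exact permutation p of 0.0357 is the smallest that 3 against 5 libraries can give, and the adjusted p was 0.198. For opn1lw1 to opn1sw1 and for rho to exorh the smallest adjusted p of the 3 comparisons was 0.208 and 0.321. Of the 15 tests 3 had an unadjusted p under 0.05. In the test across all genes opn1mw1 fell and opn1mw2 rose with 2-HD, with 95% intervals of the log2 fold change of -0.996 to -0.44 for opn1mw1 and 0.13 to 1.11 for opn1mw2.

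**Figure D3:**
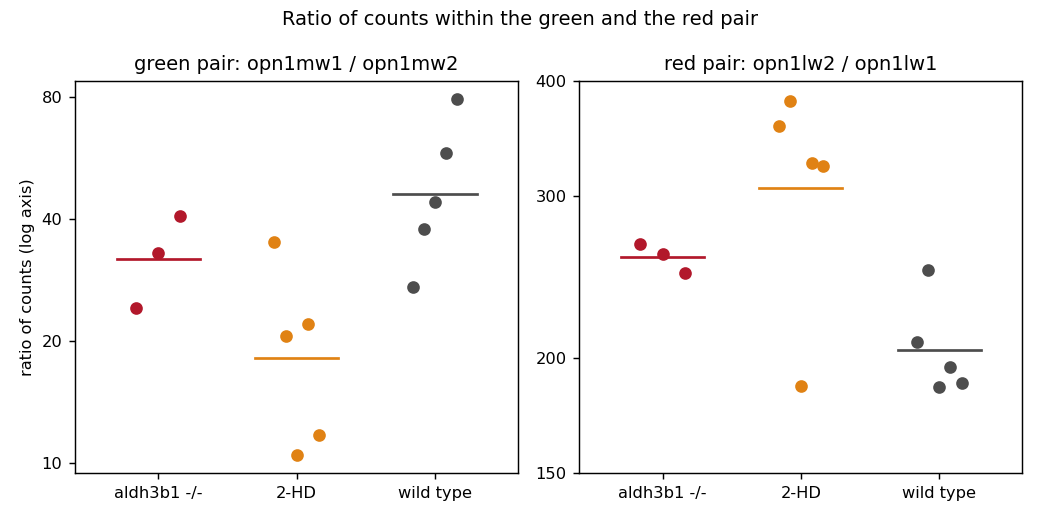
Counts of opn1mw1 per count of opn1mw2 (left) and of opn1lw2 per count of opn1lw1 (right) in each library, on log axes. Points are libraries and lines are geometric means of the groups, and the points with 2-HD run from 10.5 to 35.2 on the left and from 186 to 380 on the right.

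As shares of all opsin counts in a library, the abundant opsins opn1sw1, rho, opn1lw2 and opn1sw2 overlapped between groups. The share of opn1mw1 was higher in all knockout libraries than in all others, by a narrow margin against wild type. A share also rises when other opsins fall, and in CPM opn1mw1 averaged less in the knockout than in wild type (1117 and 1423). How often such a separation of shares arises among other genes was not tested. The shares were not tested, depend on gene length and describe reads, not molecules. For opn1sw1 it was 32.4 ± 0.966% in the knockout, 33.96 ± 1.87% with 2-HD and 33.8 ± 2.70% in wild type (SD, n = 3, 5 and 5). For rho it was 25.2 ± 2.08% in the knockout, 24.5 ± 2.21% with 2-HD and 23.9 ± 3.37% in wild type. The share of opn1lw2 was 17.2 ± 1.58% in the knockout, 18.9 ± 1.10% with 2-HD and 18.98 ± 1.49% in wild type. The share of opn1sw2 was 9.88 ± 0.416% in the knockout, 9.53 ± 0.614% with 2-HD and 9.07 ± 0.989% in wild type. For opn1mw1 the shares were 14.7 ± 0.292% in the knockout, 12.2 ± 0.920% with 2-HD and 13.8 ± 0.402% in wild type, with all 3 knockout libraries (14.4 to 15.02%) above all 2-HD libraries (11.3 to 13.3%) and all wild-type libraries (13.3 to 14.3%). For opn1mw2 they were 0.471 ± 0.116% in the knockout, 0.720 ± 0.293% with 2-HD and 0.318 ± 0.126% in wild type. The low members opn1lw1 and exorh held the smallest shares of the 8, at 0.0668% and 0.0750% in the knockout, 0.0641% and 0.0729% with 2-HD and 0.0937% and 0.0796% in wild type.

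Within groups the abundant cone opsins deviated together from library to library. After subtraction of each group's mean log2 CPM, Pearson's r over the 13 libraries was 0.93 between opn1mw1 and opn1sw1, 0.83 between opn1lw2 and opn1sw1, 0.82 between opn1lw2 and opn1mw1, 0.83 between opn1mw1 and opn1sw2, 0.82 between opn1sw1 and opn1sw2 and, lowest, 0.63 between opn1lw2 and opn1sw2. These values are descriptions, and the genes share library, depth and scaling. With opn1sw1, opn1mw2 had an r of -0.68, exorh of -0.15 and rho of 0.39. In single libraries, 2-HD library 3 was the lowest of its group for opn1lw2, opn1mw1, opn1sw1, opn1sw2 and rho, and the highest of it for opn1lw1 and exorh. Knockout library 2 was the lowest of its group for opn1lw1, the same 4 cone opsins and rho, and the highest for opn1mw2 and exorh. Wild-type library 3 was the lowest of its group for opn1lw2 and opn1sw1 and the highest for opn1mw2. The summed level of 31 lens genes was also lowest of all 13 libraries in knockout library 2, at 4989 CPM, against 9460.3 and 10109 CPM in knockout libraries 3 and 7, and its part in the opsin values was not tested.

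**Figure D4:**
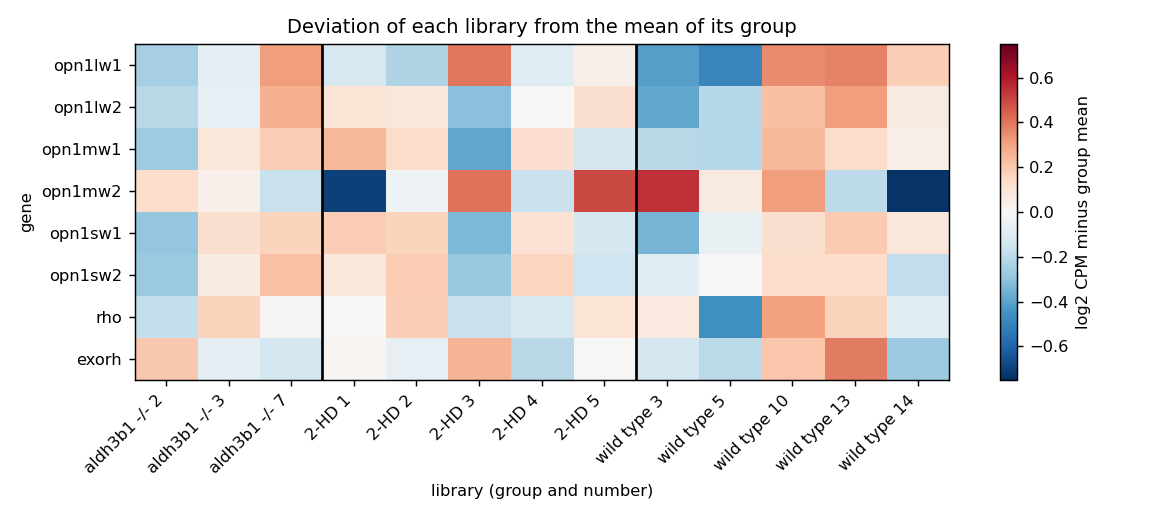
Deviation of each library from the mean of its group in log2 CPM, with opsins in rows and libraries in columns and black lines between the aldh3b1 -/-, 2-HD and wild-type groups. Red is above and blue below the group mean, and the rows of opn1lw2, opn1mw1, opn1sw1 and opn1sw2 are blue together in knockout library 2, 2-HD library 3 and wild-type library 3, where opn1mw2 is red.

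By the same measure, the genes most like each opsin were ranked among 15725 genes of average log2 CPM of at least 1. The closest to opn1sw1 was gnb3b, a cone transducin subunit gene (r = 0.97). It was also at rank 3 for opn1mw1 (r = 0.92), after sntg2 and camk1ga. The closest to rho was pde6gb, a phosphodiesterase subunit gene of photoreceptors (r = 0.93). The cone transducin alpha subunit gene gnat2 was at rank 3 for opn1sw2 (r = 0.91), after tlcd5b and atf7ip. The closest were slco1c1 for opn1lw1 (r = 0.89), hs3st3l for opn1lw2 (r = 0.94), sntg2 for opn1mw1 (r = 0.92), ganab for opn1mw2 (r = 0.95), tlcd5b for opn1sw2 (r = 0.94) and ahrra for exorh (r = 0.96). At ranks 2 and 3 were jtb and eif1 for opn1lw1, ndnfl and mxi1 for opn1lw2, and ncdn and otud4 for opn1mw2. They were pax10 and acsbg2 for opn1sw1, tsc2 and ttc7b for rho, and irx1b and rspry1 for exorh. With 13 libraries and this many genes, such values are the top of a long ranking and are given as descriptions.

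The genes that act with the opsins in phototransduction were mostly called lower with 2-HD, and most of them were not called in the knockout. Over all genes tested, 1.86% were called lower and 4.1% higher in the knockout, and 19.7% lower and 22.7% higher with 2-HD. The gene lists set beside these shares were chosen with earlier results of these data known. Of 29 cone genes tested, 3 fell and 0 rose in the knockout (median log2 fold change -0.54), and 22 fell and 0 rose with 2-HD (-0.65). In the knockout these were the transducin subunit genes gngt2b (389.9 ± 58.6 CPM in the knockout and 691 ± 146 CPM in wild type, SD, n = 3 and 5, edgeR adjusted p = 0.0176) and gnb3b (edgeR adjusted p = 0.0401) and the guanylate cyclase gene gucy2f (edgeR adjusted p = 0.0381). With 2-HD the calls with the smallest adjusted p were those of rcvrn2, a recoverin gene (log2 fold change -0.96), pde6ha, of the cone phosphodiesterase (-2.80), and gngt2a, a cone transducin subunit gene (-1.01). Of the 18 genes of the rod list, not all of which are particular to rods, 2 fell and 0 rose in the knockout. They were gngt1 of rod transducin (-0.72) and the rhodopsin kinase gene grk1a (-0.55). With 2-HD 13 genes of the rod list fell, among them the arrestin gene sagb (-0.94), and 2 rose, guca1a (1.64) and pde6ga (0.73), both named after their values were seen. Like opn1mw2, these were exceptions among genes of photoreceptors that were mostly lower.

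Genes of outer segment structure had 2 of 22 lower and 0 higher in the knockout, fscn2a (-0.89) and rs1a (-0.62), and 14 lower and 1 higher with 2-HD. The gene called higher with 2-HD was fscn2a (0.40), the actin bundling gene that fell in the knockout, and it differed between knockout and 2-HD by -1.29 (edgeR adjusted p = 0.00632). Regulators of photoreceptor fate had 3 of 27 lower and 0 higher in the knockout: otx5 (-0.49), a homeobox gene of the pineal and the retina, neurod1 (-0.72) and samd7 (-1.07). With 2-HD 16 of them fell and 2 rose, and the falls included thrb (-0.84), the thyroid hormone receptor gene needed for red cones, rx2 (-0.94), a retinal homeobox gene, and otx5 (-0.75). A regulator of green opsin genes in zebrafish, six7, also fell (-1.53, edgeR adjusted p = 5.61e-04), and it is named after its value was seen. The 2 regulators that rose are not named. Of the green opsins opn1mw1 was called lower and opn1mw2 higher with 2-HD, and a link of either to six7 was not tested. For thrb the groups can be set side by side. Its level was 56.3 ± 6.92 CPM in the knockout (n = 3), 37.97 ± 4.68 CPM with 2-HD (n = 5) and 68.02 ± 6.45 CPM in wild type (SD, n = 5), and its knockout value of -0.27 did not pass (edgeR adjusted p = 0.154). Genes of the retinoid visual cycle, which renews the light absorber of the opsins, had 2 of 21 lower and 1 higher in the knockout and 9 lower and 3 higher with 2-HD. The interphotoreceptor retinoid carrier gene rbp3 fell with 2-HD (log2 fold change -1.67), and so did the retinol dehydrogenase gene rdh8b (-1.49) and the outer segment transporter gene abca4a (-0.78).

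Set directly against each other, knockout and 2-HD larvae differed in some of these genes. In the knockout 1 of 29 cone genes was called lower and 2 higher, and of the 18 genes of the rod list 2 lower and 1 higher. Of 27 fate regulators 0 were called lower and 5 higher. Among all genes tested 3.06% were called lower and 3.93% higher. The 0 of 8 opsins called is near the 6.98% called in either direction and gives no contrast to these lists. Of the cone genes, pde6ha was higher in the knockout than with 2-HD (log2 difference 2.06, edgeR adjusted p = 0.0159), as was rcvrn2 (0.62), and gucy2d was lower (-0.48). Of the rod list, guca1a (-2.45) and pde6ga were lower and sagb (0.59) was higher. Of the fate regulators, rx2 (1.02), thrb (0.57) and rorca (1.19) were higher in the knockout.

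Non-visual opsins outside the 10 members were compared next. Of 27 rows of non-visual opsins tested, 0 were called in the knockout (median log2 fold change -0.24), and 13 fell and 0 rose with 2-HD (-0.52). The calls with the smallest adjusted p were opn3, 3.23 ± 1.20 CPM with 2-HD and 10.3 ± 1.44 CPM in wild type (SD, n = 5 each, edgeR adjusted p = 4.88e-05), opn6b (-1.70) and the melanopsin gene opn4xb (-0.86). Of 12 rows of pineal genes, which included otx5 and some of these opsins, 1 fell and 0 rose in the knockout and 6 fell and 0 rose with 2-HD. The shares of all genes tested that were called lower were 1.86% in the knockout and 19.7% with 2-HD. Among the called pineal genes were lhx4 (-0.78) and the second row of parietopsin (-0.55).

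Markers of other retinal neurons and of neurons in general were mostly called lower with 2-HD too. Among all genes tested 19.7% were called lower and 22.7% higher with 2-HD. In the 2-HD comparison, 12 of 13 bipolar cell genes fell (median log2 fold change -0.59), 10 of 15 of amacrine and horizontal cells (-0.56), 9 of 12 of retinal ganglion cells (-0.49) and 22 of 24 pan-neuronal rows (-0.50), with 0 rising in each. These medians lie beside the -0.55 of the opsins. Of 12 genes of Muller glia 6 fell and 3 rose, of 28 lens genes 3 fell and 0 rose (-0.19), and of 15 genes of the retinal pigment epithelium and pigment 1 fell and 5 rose (0.22). The shares called lower were thus 10.7% for lens and 6.67% for the pigment list, below that of all genes tested.

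In the knockout comparison the medians of these lists were nearer to 0 than the -0.44 of the opsins. They were -0.30 for bipolar cells, -0.25 for amacrine and horizontal cells, -0.32 for retinal ganglion cells, -0.21 for pan-neuronal rows and -0.23 for lens. Calls were 1 of 13, 1 of 15, 1 of 12, 3 of 24 and 0 of 28 lower in this order, with 0 higher, and for Muller glia 1 of 12 lower and 0 higher. Among all genes tested 1.86% were called lower and 4.1% higher in the knockout. Of the pigment list 0 fell and 1 rose, the melanin enzyme gene tyr (0.53). Whether opsins differed from these lists in their change was not tested.

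In most neural and retinal lists, the summed level of every knockout and 2-HD library lay below all wild-type libraries. For lens and pigment the libraries of both groups overlapped wild type. Knockout libraries also did so for the retinoid visual cycle (858 to 1027 CPM against 924 to 1195 CPM) and non-visual opsins (228 to 280 CPM against 276 to 339 CPM). For Muller glia (2252.46 against 2252.51 CPM) and fate regulators (852 against 853 CPM) the highest knockout library all but reached the lowest wild-type library. How often sums of other genes separate in this way was not tested. The mean lens sum was 8186 CPM in knockout, 8018 CPM in 2-HD and 9908 CPM in wild type. The low knockout mean rested on library 2 at 4989 CPM, as knockout libraries 3 and 7 lay within the wild-type range at 9460 and 10109 CPM. Medians were 9460 CPM in knockout, 8088 CPM in 2-HD and 9721 CPM in wild type. The pan-neuronal sum was 3798 to 4301 CPM in knockout, 2868 to 3691 CPM in 2-HD and 4583 to 4942 CPM in wild-type libraries, without overlap between wild type and either group. The cone phototransduction sum was 3187 to 4325 CPM in knockout, 2563 to 4421 CPM in 2-HD and 4492 to 6113 CPM in wild-type libraries, again without overlap. The lens sum was 4989 to 10109 CPM in knockout, 7452 to 8609.5 CPM in 2-HD and 8552 to 11681 CPM in wild-type libraries, and the pigment sum was 981 to 1097 CPM in knockout, 1049 to 1386 CPM in 2-HD and 958 to 1051 CPM in wild-type libraries, with overlap in both. None of the rows of these lists was at 0 throughout a group. The bipolar cell sum was 367 to 401 CPM in knockout, 267 to 364 CPM in 2-HD and 456 to 512 CPM in wild-type libraries. That of amacrine and horizontal cells was 985 to 1054 CPM in knockout, 773 to 940.4 CPM in 2-HD and 1174 to 1294 CPM in wild-type libraries. That of retinal ganglion cells was 476 to 486 CPM in knockout, 372 to 461 CPM in 2-HD and 521 to 586 CPM in wild-type libraries, and in these 3 sums both groups lay below all wild-type libraries. The sums of most photoreceptor, other retinal and neuronal lists were thus lower in both groups, as was that of the opsins. In bulk RNA from larvae, it cannot be told in which organ the genes of a list were expressed. The part of each list in the opsin differences was not tested.

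**Figure D5:**
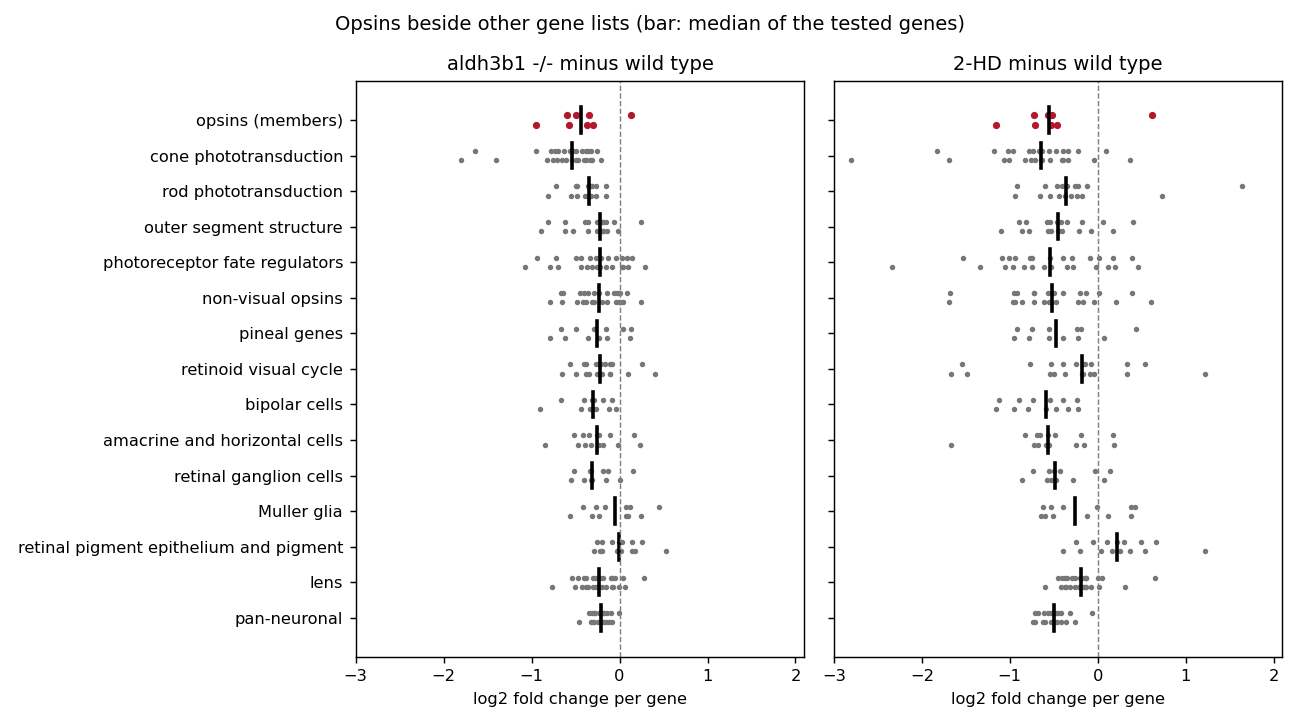
Log2 fold change of each tested gene in the knockout (left) and with 2-HD (right) against wild type, for the 8 opsins (red) and the 14 other lists (grey), with a black bar at the median. The opsin medians are -0.44 and -0.55, the pan-neuronal medians -0.21 and -0.50, and the pigment list lies around 0 or above.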

How the data were processed

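The authors deposited whole-number read counts per gene symbol, not normalized. The submitters' processing notes name Trim Galore (0.6.7), HISAT2 (2.2.1), featureCounts (2.0.1) and build GRCz11. Which annotation was used, whether strand counted and how reads with several hits were handled are not given in the sources used here. Per the labels, TRIzol RNA was sequenced as BGISEQ-500 libraries. Libraries are named by the number in their description label, which differs from the title number for wild-type library 3. Pairs of libraries within a group differed by more than sampling noise (chi-square per degree of freedom 4.91 to 26.1).

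With edgeR (4.0.16, R 4.3.3), 22158 of 32417 rows passed filterByExpr (minimum count 10). All 13 libraries entered 1 quasi-likelihood fit by group, with TMM factors, and contrasts were tested with Benjamini-Hochberg adjustment. The step was tested on simulated data. Standard errors come from the F statistic. DESeq2 1.42.0, other scalings, filters, left-out libraries and a block were alternatives. Ratios of opsins with at least 10 counts in every library were tested by exact permutation (SciPy 1.17.1), and the ratio of opn1mw3 to opn1mw4 was left out. Shares per coding length were planned, but no lengths were used here, so shares are of counts. The opsins and the 14 gene lists were chosen with earlier results of these data known. Named genes are the 3 calls per list and comparison with the lowest adjusted p, exceptions being stated, and the 3 most similar genes were ranked for each opsin by group-centred log2 CPM (prior count 2).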

Additional observations from a re-analysis of the deposited data

Results flagged for a closer look

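Among 26 sets of 5 libraries, each opsin's CPM and each ratio in the 2-HD and in the wild-type group, 1 held a library far from the rest. In 2-HD library 3 the log2 ratio of opn1lw1 to opn1lw2 was -7.54, against -8.57 to -8.34 in the other 4 libraries with 2-HD, a gap of 0.771 of the whole range where 0.71 was the limit. Chance marks about 1 in 20 such sets.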

How the results depend on the processing

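The 8 opsin calls with 2-HD against wild type were kept in number with DESeq2, both other scalings and no filter on low counts. They were also kept without both libraries that stood apart, and 7 or 8 were called without any 1 library. Knockout calls were less stable: 0 to 4 opsins and 3 to 2071 genes without 1 library, 0 opsins and 102 genes with only the 2 groups in the fit, and 4 opsins and 2406 genes with DESeq2. For knockout against 2-HD, genes called ranged from 81 to 3229 without 1 library, and were 2390 with DESeq2 and 3494, with 1 opsin, without both libraries that stood apart. Replicate numbers 2, 3 and 5 are shared between groups, and r between the deviations of same-numbered libraries was -0.0042 to 0.26. Libraries of different numbers were not compared in this way, so these values cannot decide whether the numbers mark pairs. The labels state no batch, and the libraries were not taken as pairs. In a fit with the number as a replicate block, libraries whose number occurs once carry no weight in the contrasts. These then rest on knockout libraries 2 and 3, 2-HD libraries 2, 3 and 5 and wild-type libraries 3 and 5 alone. The block fit is thus no like-for-like alternative to the main fit. Its calls were 2 genes and 0 opsins for the knockout, 4230 genes and 2 opsins (opn1mw1 and opn1mw2) for 2-HD, and 333 genes for knockout against 2-HD, and opn1lw1 there was -0.028. Values also moved by over 1.5 times under the block. With 2-HD they were -0.49 for opn1lw1, -0.27 for opn1lw2, -0.27 for rho and -0.47 for exorh, and in the knockout -0.52 for opn1lw1, -0.35 for opn1lw2, -0.23 for rho, -0.36 for exorh and 0.044 for opn1mw2.

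Signs turned in uncalled values near 0. Without 1 library, knockout minus 2-HD ran from -0.18 to 0.066 for opn1lw2, -0.047 to 0.17 for opn1sw1 and -0.11 to 0.20 for the rho to exorh ratio, and knockout minus wild type from -0.021 to 0.28 for opn1mw2. The opn1sw1 to opn1sw2 ratio, 2-HD minus wild type, ran from -0.13 to 0.0014. Without both libraries that stood apart opn1mw2 was -0.028 in the knockout and opn1lw2 0.0071 against 2-HD. The sum of the green opsins gave -0.67 with 2-HD, opposite to opn1mw2 alone, because opn1mw1 holds most of the reads. The causes of the other changes were not tested.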
